A study of Mus musculus with 4 samples.

Results

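Protein disulfide isomerases (PDIs) and the oxidases that recharge them are the enzymes with which the endoplasmic reticulum (ER) builds disulfide bonds into secreted and membrane proteins. The 10 genes described here are P4hb, Pdia3, Pdia4, Pdia5, Pdia6 and Txndc5, which encode isomerases, Erp44 and Erp29, which encode related proteins with a thioredoxin fold, and Ero1l and Ero1lb, which encode the oxidases ERO1 alpha and ERO1 beta. They were chosen by gene symbol, and all 10 were among the 11598 genes of the deposited table. The set was proposed with the differences between the genotypes in these same libraries already known, so the values below that compare genotypes for the 10 genes are a description and support nothing on their own.

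The measurement was ribosome profiling, the sequencing of the ribosome-protected fragments (RPFs) that ribosomes leave on mRNA after RNase I digestion. Leptotene and zygotene spermatocytes, the germ cells at the opening of meiotic prophase, were sorted from the testes of mice at 12 days postpartum (dpp), and cycloheximide was present at lysis. The control group, whose genotype is labelled wild type, had 2 libraries and the Eef1g-cKO group, a conditional knockout, had 2. Eef1g encodes the gamma subunit of the elongation factor eEF1, and the floxed gene, on a C57BL/6J background, was deleted by Stra8-GFPCre, which acts in male germ cells from the differentiating spermatogonium on and leaves the somatic cells of the testis intact. The comparison asks how RPF abundance differed when early meiotic cells lacked this subunit. The sources used here do not say how many mice stand behind a library, so the spread between libraries may be technical.

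Depth differed between the genotypes. The control libraries held 2479504 and 1384282 counted reads and the Eef1g-cKO libraries 223906 and 407979, a difference of 6.11-fold between the group means. Eef1g itself had 107 and 58 reads in control libraries and 0 and 4 in Eef1g-cKO libraries (27.6, 26.8, 0 and 6.26 FPKM), and its log2 fold change of −3.39 ± 0.91 (SE) did not pass the genome-wide limma fit (adjusted p = 0.073). Abundance is given in FPKM, reads per kilobase of the gene's listed length scaled to library depth, and summed levels of several genes in RPM, the same scaling to depth without the length. Intervals are exact 95% binomial intervals of the reads and cover counting error only.

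The cell type markers differed between the groups. The summed RPF reads of 15 leptotene and zygotene markers were 4855 and 3828 RPM in control, and 9495 and 9103 RPM in Eef1g-cKO. Of these 15 genes, 10 had both Eef1g-cKO libraries above both control ones and 2 had both below. Over all genes tested the shares were 24.6% and 37.7%. The summed reads of 13 spermatogonial markers were 2634 and 3189 RPM in control, and 536 and 527 RPM in Eef1g-cKO. The 11 Sertoli cell markers in the table gave 1287 and 328 RPM in control against 313 and 208 RPM in Eef1g-cKO, so that control replicate 1 stood apart from the other 3 libraries, and 7 peritubular and stromal markers gave 367 and 333 against 89.3 and 115 RPM. Only 5 of 13 pachytene and spermatid markers were in the table, and they summed to 344 and 268 RPM in control, and to 1108 and 1039 RPM in Eef1g-cKO. Of these 5 genes, the linker histone gene Hist1h1t and Ldhc had both Eef1g-cKO libraries above both control ones, and the median log2 fold change of the 5 was −1.46, opposite in sign to the change of their sum. Of 7 Leydig cell markers 3 were in the table, at 4.90 to 11.6 RPM in all, and none of the 9 macrophage and blood markers was. Among the marker genes in the table, Nanos2, Upp1, Prm2, Gata4, Cyp11a1 and Hsd3b1 had 0 reads in both Eef1g-cKO libraries. At their lower depth, 2086 and 1452 genes of the table had 0 reads in Eef1g-cKO replicates 1 and 2. The 3 Leydig cell markers held only 18 and 16 reads in control, so a 0 does not show that a gene or cell type was absent. The marker shifts run with genotype in every result below, and their part in those results was not tested. Fewer cells of a type and less RNA per cell cannot be told apart in these libraries, and RPF reads alone do not separate the amount of an mRNA from its translation.

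PDIs are built from thioredoxin-like domains, and in a catalytic domain a pair of cysteines, 2 residues apart, passes a disulfide to the client protein or rearranges a wrong one. Reduced PDI is oxidised again by ERO1, which hands the electrons to oxygen and makes hydrogen peroxide, and ERP44 binds ERO1 and holds it in the early secretory pathway. ER proteins of this kind are well-known targets of the unfolded protein response, whose factors ATF6 and XBP1 act through promoter elements such as the ER stress response element (ERSE).

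The members differ in how many cysteine pairs with this spacing they encode, which is why the sites are shown. In the RefSeq coding sequences (GRCm38.p6, the patch release of the mm10 build named in the submitters' processing notes) pairs of cysteine codons, TGT or TGC, with 2 codons between them were counted. P4hb, Pdia3 and Pdia6 encode 2 such pairs each, Pdia4, Pdia5 and Txndc5 encode 3 each, and Ero1l and Ero1lb encode 2 overlapping pairs each. For the oxidases only the first pair is printed, which does not mark it as the catalytic pair. The second lies at codons 390 and 393 in Ero1l, around ttcaag, and at 393 and 396 in Ero1lb, around gataaa. Spacing alone does not tell whether a pair is catalytic. Erp44 and Erp29 encode none, and Erp29 has 1 cysteine codon in all. Each line gives 8 codons of the coding strand, 5′ to 3′, with the cysteine codons of the pair in capitals.
P4hb, codons 55 and 58: ccgtggTGTggccacTGCaaagct
Pdia4, codons 551 and 554: ccctggTGTgggcacTGCaagcag
Pdia6, codons 55 and 58: ccatggTGTggtcacTGCcagagg
Pdia5, codons 180 and 183: ccctggTGCagcatgTGCaagaga
Ero1l, codons 387 and 390: atggacTGTgttggcTGCttcaag
Ero1lb, codons 390 and 393: atggacTGTgttgggTGCgataaa
The P4hb site lies in 1 exon at chr11:120571699-120571722 on the minus strand, the Pdia4 site at chr6:47796746-47796769 on the minus strand, the Ero1l site at chr14:45288000-45288023 on the minus strand and the Ero1lb site at chr13:12602350-12602373 on the plus strand, while the Pdia6 and Pdia5 sites are split by an intron. The inner codons are GGN followed by CAT or CAC in all pairs of P4hb, Pdia3, Pdia4, Pdia6 and Txndc5 but in only 1 of the 3 pairs of Pdia5, and in neither oxidase. The last codons, where an ER retrieval signal sits in many ER proteins, are shown for 4 members. These are P4hb, Erp44 and the oxidases, which ERP44 binds and holds in the early secretory pathway.
P4hb: aaggatgaactg
Erp44: cgagatgagctg
Ero1l: cagaatgttcac
Ero1lb: cagcacaggagg
P4hb and Erp44 both end in the codon CTG, as do Pdia5 and Erp29, and neither oxidase does. The last codon is TTG in Pdia6, CTA in Txndc5, CTC in Pdia3 and CTT in Pdia4. The last codon alone does not tell whether a retrieval signal is present.

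As a whole, the 10 genes took up more of the RPF reads in Eef1g-cKO than in control. Their summed reads were 4379 and 4887 RPM in control, and 11179 and 10474 RPM in Eef1g-cKO, a ratio of 2.34 between the group means, with no overlap between the groups. P4hb and Pdia6 made up most of that sum, and the other 8 genes together went from 1580 and 1854 to 2715 and 2478 RPM, a ratio of 1.51.

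**Figure D1:**
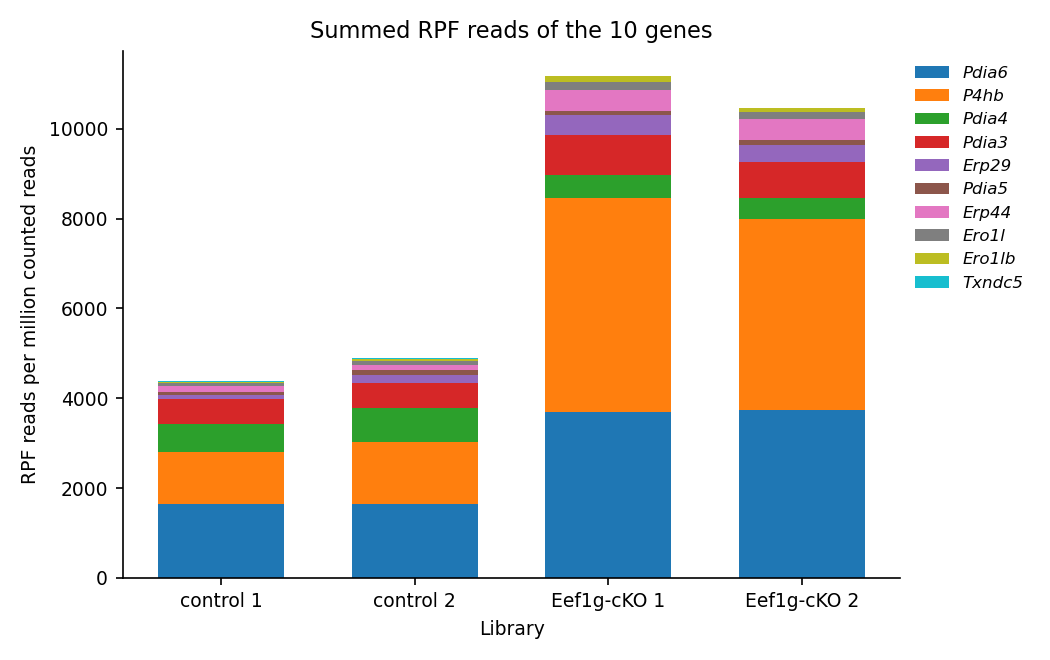
Stacked bars give the RPF reads of the 10 genes (y axis, in RPM) in each of the 4 libraries (x axis), 1 colour per gene. The bars of both Eef1g-cKO libraries, at 11179 and 10474 RPM, are taller than those of the control libraries, at 4379 and 4887, and the P4hb segment grows most.

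The individual genes split into those that rose, those between the genotypes and 1 that was lower. Across the genome the 10475 genes that averaged 1 FPKM or more were fitted with limma on log2(FPKM + 1), a scale that understates the change of low genes, and a gene was called at an adjusted p below 0.05 with a log2 fold change beyond 1 in size. All 10 genes passed the filter. P4hb, Pdia6, Erp44, Erp29 and Ero1lb were called increased, 5 of 10, against 2.87% of all genes tested, and 0 of 10 were called decreased, against 4.97%. At an unadjusted p the counts were also 5 and 0, against 7.32% and 16.3% of all genes. In 7 of the 10 genes the lower Eef1g-cKO library exceeded the higher control library, which held for 24.6% of all genes, in 1 gene both lay below, against 37.7%, and in the other 2 the groups overlapped. Since the genes were chosen with this contrast known, nothing is read from these counts. The median log2 fold change was 1.04 over the 10 genes and −0.23 over all genes tested. When each library was centred on its median, the median of all genes moved to −0.02, the same 5 members passed, and the calls over all genes went from 301 increased and 521 decreased to 521 increased and 383 decreased. Each number of calls rests on few libraries: 0 members (and 0 genes of all tested) were called without control replicate 1 or without control replicate 2, 3 when Eef1g-cKO replicate 1 was left out, and 4 when Eef1g-cKO replicate 2 was. The number was 1 with a pseudocount of 0.1 FPKM, 2 without the filter, and 0 both with an untrended prior variance and with all libraries thinned to the smallest.

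**Figure D2:**
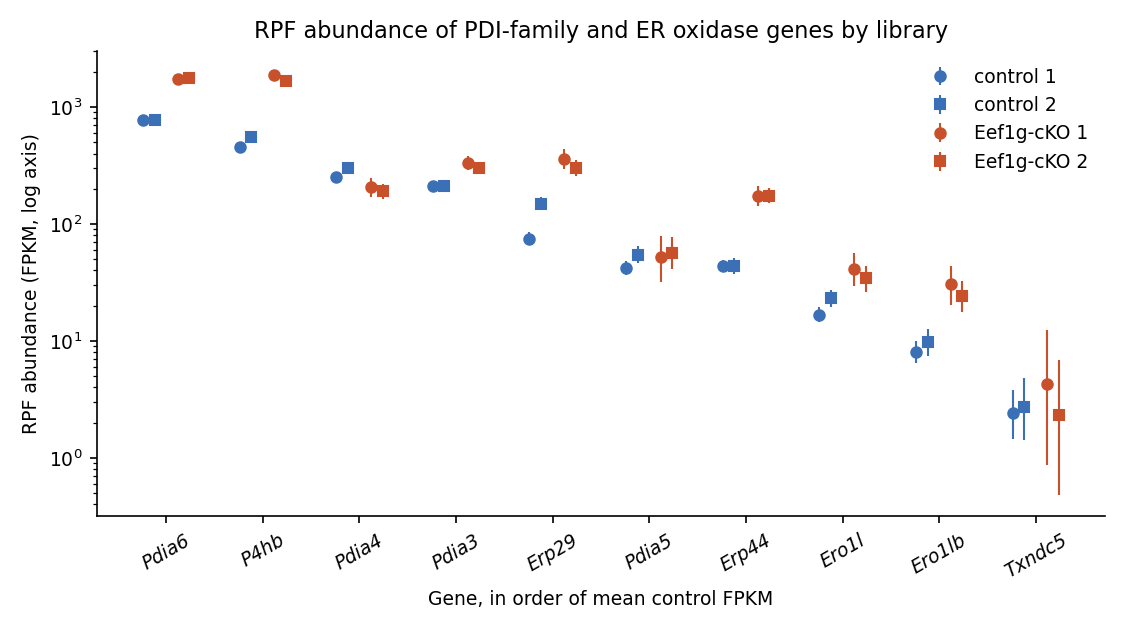
RPF abundance in FPKM (log axis) of each gene, ordered by its control mean, with 1 point per library (control in blue, Eef1g-cKO in orange, circles replicate 1, squares replicate 2) and exact 95% binomial intervals. The orange points sit clear of the blue ones for P4hb, Pdia6, Erp44, Erp29 and Ero1lb, and also for Pdia3 and Ero1l, which missed the thresholds; they lie below them for Pdia4 and among them for Pdia5 and Txndc5.

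By FPKM, the oxidases were among the least occupied of the 10 genes. Ero1lb, which encodes ERO1 beta, had 8.09 and 9.71 FPKM in control and 30.6 and 24.3 FPKM in Eef1g-cKO, from 85, 57, 29 and 42 reads. Its groups did not overlap, and it rose by 1.52 ± 0.31 (SE) on the log2 scale. Ero1l, which encodes the more widely expressed ERO1 alpha, had 16.8 and 23.1 FPKM in control and 41.4 and 34.4 FPKM in Eef1g-cKO, from 184, 141, 41 and 62 reads. Both Eef1g-cKO values were above both control values, but its 0.91 ± 0.28 on the log2 scale missed the thresholds. The fit of edgeR to whole reads gave Ero1l 1.00 and called it, so that there 6 of the 9 members tested were called increased, against 8.75% of all genes in that fit. DESeq2 gave Ero1l 0.98 and did not call it, and called 5 members increased. The FPKM ratio of Ero1l to Ero1lb was 2.08 and 2.37 in control against 1.36 and 1.42 in Eef1g-cKO, so Ero1l was the more abundant of the pair in all 4 libraries, by a smaller margin in Eef1g-cKO.

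P4hb, the archetypal PDI and also the beta subunit of prolyl 4-hydroxylase and a subunit of the microsomal triglyceride transfer protein, showed the largest gain of the 10 genes in depth-scaled reads. It had 457 and 550 FPKM in control (2875 and 1932 reads) and 1879 and 1676 FPKM in Eef1g-cKO (1068 and 1735 reads). The lower of the Eef1g-cKO values was well above the higher of the control values, and the log2 fold change was 1.82 ± 0.24. The share of P4hb in the reads of the 10 genes was 26.5% and 28.6% in control against 42.7% and 40.6% in Eef1g-cKO.

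Pdia6, which encodes a PDI that works with the chaperone BiP, was the most abundant of the 10 genes in control. Its replicates were close, with 772 and 770 FPKM in control and 1738 and 1761 FPKM in Eef1g-cKO, and it rose by 1.18 ± 0.23 on the log2 scale. Its share of the reads of the 10 genes was 37.4% and 33.5% in control against 33.0% and 35.7% in Eef1g-cKO, so these shares overlapped. The FPKM ratio of P4hb to Pdia6 was 0.592 and 0.714 in control against 1.08 and 0.951 in Eef1g-cKO.

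Pdia3, which encodes the isomerase ERp57 that is brought to glycoproteins by calnexin and calreticulin, differed less. It had 211 and 211 FPKM in control and 331 and 303 FPKM in Eef1g-cKO. The groups did not overlap, and the difference, 0.59 ± 0.19 on the log2 scale, missed the thresholds. Pdia4, which encodes ERp72, a PDI with an additional catalytic domain, was the only member lower in both Eef1g-cKO libraries. It had 250 and 300.5 FPKM in control (1539 and 1032 reads) and 207 and 191 FPKM in Eef1g-cKO (115 and 193 reads). The difference, −0.46 ± 0.21 on the log2 scale, missed the thresholds. Its log2 fold change was below 0 in all 14 settings tried, from −0.59 to −0.25. The FPKM ratio of P4hb to Pdia4 was 1.83 in both control libraries and 9.08 and 8.79 in Eef1g-cKO.

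Pdia5 and Txndc5 showed overlapping groups. Pdia5, which encodes a less studied isomerase of the family, had 42.1 and 54.7 FPKM in control and 51.8 and 56.9 FPKM in Eef1g-cKO, and the Eef1g-cKO values came from 21 and 42 reads. Its log2 fold change of 0.17 ± 0.24 changed sign without control replicate 1 (−0.01). Txndc5, which encodes ERp46, had 2.43 and 2.75 FPKM in control and 4.24 and 2.33 FPKM in Eef1g-cKO, but the latter were 3 reads each. The ratio of its pooled reads between Eef1g-cKO and control, scaled to depth, was 1.18 with a 95% interval of 0.404 to 2.88, so a difference up to those sizes was not detectable at this depth.

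The members that encode no cysteine pair both rose. Erp44, which encodes the retrieval factor that holds ERO1 and unfinished disulfide-linked proteins in the early secretory pathway, had 43.9 FPKM in both control libraries and 174 and 175 FPKM in Eef1g-cKO. The Eef1g-cKO values came from 103 and 189 reads, and the log2 fold change of 1.97 ± 0.19 was the largest of the 10. Relative to Ero1l, 1 of its clients, Erp44 stood at an FPKM ratio of 2.61 and 1.91 in control against 4.19 and 5.09 in Eef1g-cKO. Erp29, which encodes a small redox-inactive folding factor, had 75.0 and 149 FPKM in control and 359 and 302 FPKM in Eef1g-cKO. Its groups did not overlap and it rose by 1.63 ± 0.35, but on the log2 scale its control replicates stood further apart than those of any other member. The log2 fold change ran from 1.14 without control replicate 1 to 2.12 without control replicate 2.

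**Figure D3:**
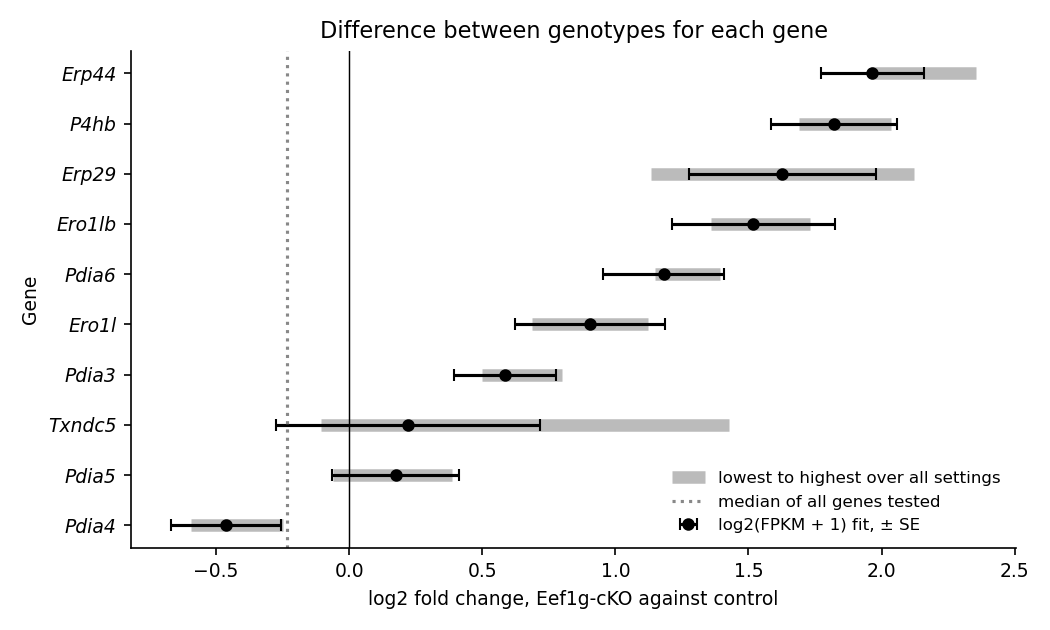
Black points give the log2 fold change of each gene between Eef1g-cKO and control (x axis) with its SE, grey bars the lowest and highest value over all settings tried, and the dotted line the median of all genes tested, −0.23. Erp44 (1.97) and P4hb (1.82) lie furthest to the right, Pdia4 (−0.46) lies left of 0, and the bars of Pdia5 and Txndc5 cross 0.

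The order of the levels changed near the top. In control it was Pdia6, P4hb, Pdia4, Pdia3, Erp29, Pdia5, Erp44, Ero1l, Ero1lb and Txndc5 by FPKM, and the only neighbours whose control values overlapped were Pdia5 and Erp44. In Eef1g-cKO it was P4hb, Pdia6, Erp29, Pdia3, Pdia4, Erp44, Pdia5, Ero1l, Ero1lb and Txndc5, and the values of P4hb and Pdia6 overlapped, as did those of Erp29 and Pdia3. The listed gene length holds untranslated parts that few footprints cover, and the coding sequence is 31.6% of it for Ero1l and 85.9% for Pdia5. In RPM per kilobase of coding sequence, Ero1l stood at 63.1 and Pdia5 at 56.4 in the control mean, the reverse of their FPKM order. In the Eef1g-cKO mean Ero1l, at 120, and Ero1lb, at 82.8, both lay above Pdia5, at 63.3. On the same scale Erp44 had 95.2 in the control mean and 378 in the Eef1g-cKO mean, where it lay above Pdia4 at 256. Against all genes of the table, the control FPKM of Pdia6 and P4hb lay above 99.4% and 99.0% of genes and that of Txndc5 above 22.8%.

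The promoters of 9 of the 10 genes were available from RefSeq as windows of 300 bases around a start site. The full ERSE, CCAAT followed after any 9 bases by CCACG, on either strand, was found in 39 of 32851 such windows, or 0.119%, and in the windows of Pdia6 and Ero1lb. The stretches from base −210 to base −61 relative to the start are shown for both because the element lies at a different distance and in the opposite orientation in each, with its 19 letters in capitals.
Pdia6, chr12:17266379-17266528, plus strand: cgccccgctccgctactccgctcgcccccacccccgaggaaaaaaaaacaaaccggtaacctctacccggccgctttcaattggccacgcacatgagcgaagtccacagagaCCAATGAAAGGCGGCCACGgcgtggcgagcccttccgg
Ero1lb, chr13:12565673-12565822, plus strand: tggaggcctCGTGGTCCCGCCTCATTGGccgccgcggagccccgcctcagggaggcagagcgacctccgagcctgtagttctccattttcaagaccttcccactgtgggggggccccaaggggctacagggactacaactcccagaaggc
The windows of the other members that had one did not hold these letters, and Erp29 had no window. Over genes, 2 of 9 members held the ERSE, against 0.137% of all 27025 genes with a window. In the further lists below, it was held by 1 of 10 genes listed as thioredoxin-fold (Creld2) and 3 of 11 PDI partners (Calr, Canx and Hspa5). It was in 0 of 11 other redox enzyme genes and 0 of 10 transcription factor genes. Whether the element had a part in any difference was not tested. The related element ERSE-II, searched on both strands, was in 0.0365% of all windows and in none of a member. TGACGTGG, an XBP1 and ATF6 element (UPRE) whose reverse strand holds the CCACG of the ERSE, was searched on both strands and found in 0.676% of all windows and in 1 of the 3 windows of Txndc5. TGATGNAA, an element of ATF4 with C/EBP factors, also searched on both strands, was in 3.97% of all windows and in 1 of those of Txndc5. A match is a description of letters and not of binding.

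The wider pathway was described from 4 further lists, which were drawn up with results of these data known. A list of other ER proteins, most of them of the thioredoxin fold, had 11 genes in the table. It also held Creld1 and Creld2, whose products are not of that fold. Of the 11, 5 were called increased and 0 decreased by limma, against 2.87% and 4.97% of all genes tested. The median log2 fold change was 0.87, the value of Creld1, beside −0.23 for all genes. At an unadjusted p, 1 was decreased. edgeR tested 10 of them and called 5 increased and 1 decreased, against 705 increased and 904 decreased of 8056 genes in that fit. The gene that edgeR called decreased was Txndc16, with 26.0 and 28.9 FPKM in control and 11.1 and 10.3 FPKM in Eef1g-cKO (−1.28, adjusted p = 0.0081 by edgeR, and −1.28 ± 0.28, adjusted p = 0.0501 by limma). Creld2, a secreted ER stress protein and the most abundant of this list in control, had 103 and 161 FPKM in control and 602 and 437 FPKM in Eef1g-cKO (log2 fold change 1.99 ± 0.30, adjusted p = 0.031 by limma). Dnajc10, which encodes the disulfide reductase ERdj5, had 19.1 and 18.2 FPKM in control and 76.0 and 67.7 FPKM in Eef1g-cKO (1.89 ± 0.23, adjusted p = 0.025 by limma). The membrane-bound isomerase genes Tmx1 (2.03 ± 0.25) and Tmx4 (2.22 ± 0.32) and the small luminal oxidoreductase gene Txndc12 (1.25 ± 0.26) also rose, with limma adjusted p of 0.026, 0.031 and 0.048. Their control and Eef1g-cKO libraries did not overlap, for example 34.6 and 49.8 FPKM against 167 and 179 FPKM for Tmx1.

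The other oxidation and redox enzymes of the ER moved in both directions. Of 10 tested by limma, 2 were called increased and 2 decreased, against 2.87% and 4.97% of all genes, with a median log2 fold change of −0.37. edgeR tested 7 of the list and called 2 increased and 1 decreased, against 705 increased and 904 decreased of 8056 genes. Prdx4, the ER peroxiredoxin that uses the hydrogen peroxide made by ERO1 to oxidise PDIs, had 234 and 271 FPKM in control and 531 and 636 FPKM in Eef1g-cKO (1.20 ± 0.22, adjusted p = 0.038 by limma) and was the most abundant of this list in control. Qsox2, a sulfhydryl oxidase gene, had 21.5 and 18.5 FPKM in control and 45.6 and 48.2 FPKM in Eef1g-cKO (1.19 ± 0.24, adjusted p = 0.046 by limma). Vkorc1, which encodes the vitamin K epoxide reductase, fell, with 69.0 and 138 FPKM (128 and 143 reads) in control and 5.97 and 19.7 FPKM (1 and 6 reads) in Eef1g-cKO (−3.04 ± 0.59, adjusted p = 0.042 by limma). Gpx7, an ER peroxidase gene that can oxidise PDIs as well, had 31 and 10 reads in control and 0 in both Eef1g-cKO libraries. It was called decreased by limma (adjusted p = 0.035), but 3 reads per library, the limit that a count of 0 allows, in the Eef1g-cKO libraries come to at least its control level, so no fold is given.

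Proteins that bind PDIs were taken as a further list, with 12 genes tested, of which limma called 3 increased and 0 decreased, against 2.87% and 4.97% of all genes, with a median log2 fold change of 0.81. At an unadjusted p, 1 was decreased. edgeR tested 12 and called 4 increased and 0 decreased, against 705 increased and 904 decreased of 8056 genes. Calr, the lectin chaperone calreticulin that brings ERp57 to glycoproteins, had 1976 and 1476 FPKM in control and 5011 and 5248 FPKM in Eef1g-cKO (1.59 ± 0.32, adjusted p = 0.045 by limma). Clgn, the testis-specific calnexin homologue calmegin, rose by 1.91 ± 0.34 (adjusted p = 0.038 by limma), and Mttp, whose product forms the microsomal triglyceride transfer protein with P4HB, by 2.32 ± 0.45 (adjusted p = 0.041 by limma), from 4.94 and 2.62 FPKM to 28.4 and 17.2 FPKM. Hspa5, which encodes BiP and was the most abundant gene of the list, had 2824 and 2149 FPKM in control and 6438 and 6586 FPKM in Eef1g-cKO, and its 1.40 ± 0.34 missed the limma threshold (adjusted p = 0.061) and passed in edgeR (adjusted p = 0.000253).

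Of 11 transcription factor genes of the unfolded protein and integrated stress responses, limma called 0 increased and 0 decreased, against 2.87% and 4.97% of all genes tested. edgeR tested 8 and called 0 in either direction, against 705 increased and 904 decreased of 8056 genes. In limma at an unadjusted p with the same fold, 0 were increased and 1 was decreased, against 7.32% and 16.3% of all genes. The latter, Cebpb, had 15 and 3 reads in control and 0 in both Eef1g-cKO libraries, and its control level lay under that of 3 reads per Eef1g-cKO library, so a fall was not detectable at this depth. The list's median log2 fold change was 0.40. Atf6b, the most abundant of them, had 36.1 and 50.4 FPKM in control and 67.9 and 77.4 FPKM in Eef1g-cKO (0.75 ± 0.25, adjusted p = 0.114 by limma), and edgeR gave 0.85 (adjusted p = 0.021), under the fold threshold. Xbp1 had 12.6 and 18.6 FPKM in control and 21.9 and 8.73 FPKM in Eef1g-cKO, so its groups overlapped. FPKM does not show the spliced form of Xbp1 or the cleaved form of ATF6.

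**Figure D4:**
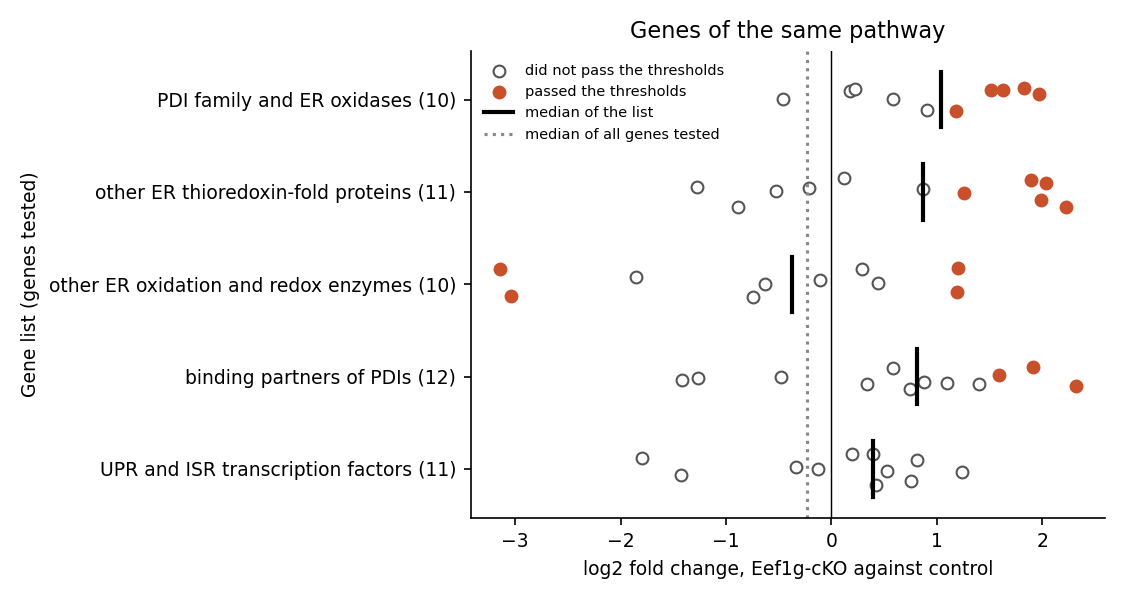
Each point is 1 gene's log2 fold change between Eef1g-cKO and control (x axis), by list (y axis, genes tested in brackets); filled points passed the limma thresholds, black bars are list medians and the dotted line the median of all genes tested, −0.23. The medians of the 10 genes (1.04), of the list labelled other thioredoxin-fold proteins, which includes Creld1 and Creld2 (0.87), and of the PDI partners (0.81) lie right of 0. That of the other oxidation enzymes (−0.37) lies left of it.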

How the data were processed

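RPF reads were trimmed, filtered and aligned by the authors (the processing notes name cutadapt, Bowtie and STAR, and the builds mm10 and hg38, without roles). The counter and annotation are not given in the sources used here. The deposited table gave FPKM per gene and library and a normalized signal per library, together with gene length. The signal, as deposited, came back to whole reads for 100% of values (tolerance 0.001), and these reads gave depth, intervals and the count fits. The lowest total over the 4 libraries was 10 reads. The other 6 columns held the authors' fold changes and p-values and were not used.

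Genes with a mean FPKM of at least 1 were log2-transformed after adding 1 FPKM and tested in limma 3.58.1 under R 4.3.3, with the prior variance trended on abundance and Benjamini-Hochberg adjustment, and called at an adjusted p below 0.05 and a log2 fold change beyond 1. No covariate was used. Alternatives were a pseudocount of 0.1, no filter, a minimum of 5 FPKM, centred libraries, an untrended prior, edgeR 4.0.16, DESeq2 1.42.0, each library left out, a replicate block and, chosen after seeing the data, libraries thinned to 222777 reads. The fits were tested on simulated data. The 10 genes and all lists were chosen with earlier results of these data known. Every member is named, and from each pathway list the called genes and the gene highest in control. Xbp1, Txndc16, Cebpb, Hist1h1t and Ldhc were named after their values were seen, Canx for its ERSE and Creld1 for its fold. Symbols matched RefSeq for all 10 members, Ero1l and Ero1lb through older symbols. Sequences are from RefSeq on GRCm38.p6. Depth was 223906 to 2479504 reads per library, so 1 read on a gene of 1 kilobase was worth 0.403 to 4.47 FPKM.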

Additional observations from a re-analysis of the deposited data

How the results depend on the processing

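The log2 fold changes of P4hb, Pdia3, Pdia6, Erp44, Erp29, Ero1l and Ero1lb were above 0, and that of Pdia4 below 0, in every setting tried. Those that turned sign were Pdia5, at −0.0101 without control replicate 1 and −0.0591 with libraries thinned to the smallest, and Txndc5, at −0.106 without Eef1g-cKO replicate 1. With 1 library left out, Pdia5 ran from −0.0101 to 0.359 and Txndc5 from −0.106 to 0.549. The number of members called increased, 5, was 1 with a pseudocount of 0.1 FPKM (Erp44), 2 without a filter (P4hb and Erp44), and 0 both with an untrended prior and with thinned libraries, where 0 genes of all tested were called too. It was 0 to 4 when 1 library was left out, with 0 without either control library. In edgeR on whole reads it was 6 of 9 members tested, against 8.75% of 8056 genes increased, with 705 genes increased and 904 decreased over all, against 301 and 521 in limma. DESeq2 called 5 members and, over all genes, 502 increased and 451 decreased. With an unadjusted p the number of members was 5 or 6 in every setting. No member was called decreased in any setting, by adjusted or unadjusted p. The median log2 fold change of the members, 1.04, was 1.26 both with centred libraries and in edgeR, and 0.91 to 1.15 when 1 library was left out. With the replicate number as a block, 4 members were called (without Pdia6), and over all genes 424 increased and 822 decreased. Same-numbered libraries did not deviate together over the 10475 genes (r = −0.01), and the correlation was −0.10 over the 1590 genes of at least 50 FPKM. These values do not show whether the libraries share a litter or batch, and the labels name none, so the number was not used as a pairing.

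The Eef1g-cKO libraries limit the precision: a gene of 1 kilobase with 0 reads there is bounded only at 13.4 and 7.35 FPKM in replicates 1 and 2, and Txndc5, with 3 reads in each, has a ratio interval (0.404 to 2.88) on both sides of 1. Whether the 6.11-fold gap in depth moved any value was addressed only by thinning, which kept the signs of the members other than Pdia5. Sizes did move: the log2 fold change went from 0.22 to 1.43 for Txndc5, from 1.97 to 2.35 for Erp44 and from 1.63 to 1.20 for Erp29.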
